A study of Mus musculus with 8 samples.

Results

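The 78 genes described here are named for proteins of the mitochondrial ribosome, and all but Mrps36 encode one. They were chosen by symbol alone: every gene whose name is Mrpl or Mrps followed by a number and at most 1 letter, 78 of the 53242 genes in the count table. The mitochondrial ribosome translates the mRNAs that mitochondrial DNA encodes, all of which specify subunits of the oxidative phosphorylation complexes. Its RNA comes from mitochondrial DNA, but its proteins are encoded in the nucleus, made on cytosolic ribosomes and imported. The small subunit (Mrps genes) reads the mRNA and the large subunit (Mrpl genes) forms the peptide bond. Some of these proteins descend from those of bacterial ribosomes and the others were acquired during the evolution of mitochondria. In resting lymphocytes mitochondrial biogenesis is limited, and it rises on activation.

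The data are bulk RNA-seq of splenic B cells from C57BL/6 mice aged 8 to 12 weeks. Control mice were Eif4a1+/+ CD23-cre and 4A1 KO mice were Eif4a1fl/fl CD23-cre, so that both genotypes carried the Cre transgene, which is driven by the Cd23 promoter and deletes the floxed alleles in maturing splenic B cells rather than in every cell of the mouse. EIF4A1 is an RNA helicase of the complex that recruits ribosomes to capped mRNAs, and the comparison asks how the RNA of activated B cells differs when the gene is deleted. All cells were cultured for 24 h with 40 ng/ml IL4 on irradiated CD40LB cells, fibroblasts that display CD40 ligand and secrete BAFF, so every value below refers to activated B cells and none to resting ones. Each genotype had 4 libraries, 1 male and 1 female in each of batches A and B. The main comparison used replicates 2 to 4 of each genotype, because the study set replicate 1 of both aside for low viability. Batch and sex were covariates, which in these 6 libraries together equal the replicate number, and results in all 8 libraries are given where they change the call of a named gene.

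Total counts were 40471387 to 43210858 in control libraries 2 to 4 and 38488341 to 42705798 in 4A1 KO libraries 2 to 4, with 39890141 and 31727557 in replicate 1 of each. Summed B cell markers were at 6970 to 8122 CPM (counts scaled to the library total) in the 8 libraries, and all 8 markers were detected. Single markers moved within that sum: Cd79b was at 473 to 568 CPM in controls and 248 to 293 in 4A1 KO cells, Cd22 at 263 to 334 and 135 to 205, and Fcer2a, the largest part of the sum, at 3061 to 3990 and 3881 to 4532. The part of these differences in the results was not tested. Of the 5 T cell markers Cd3g was at 0 throughout and their sum did not pass 0.0999 CPM, that of the 4 erythroid genes did not pass 0.150 CPM with Hba-a2 at 0 throughout, and that of the 4 myeloid genes lay between 4.09 and 8.92 CPM. Fibroblast markers, Postn at 0 throughout, summed to 9.23 to 42.9 CPM, highest in control 2. The study took the CD40LB cells out with an antibody and magnetic beads before RNA was isolated, and the part of these markers in the results was not tested. Eif4a1, whose counts cover the whole gene and not only the deleted part, was lower in each 4A1 KO library than in any control, with a log2 fold change of −0.44 ± 0.050 (SE, n = 3 per genotype) and an adjusted p = 1.15e-04 by the quasi-likelihood test of edgeR, Benjamini-Hochberg adjusted over 14218 genes. All adjusted p-values of counts below come from that test.

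Transcripts of most mitochondrial ribosomal protein genes were lower in 4A1 KO B cells. All 78 genes were expressed highly enough to be tested. Of these, 51 were lower at an adjusted p under 0.05, or 65.4%, where 26.7% of all genes tested were lower, and 4 were higher, or 5.13%, where 26.3% of all genes tested were higher. The other 23 did not pass the threshold. The changes were small: the median log2 fold change was −0.23, with an interquartile range from −0.39 to −0.05, beside a median of 0.01 over all genes tested. Of the 78, 10 genes passed the adjusted p and also fell by more than 0.5 on the log2 scale, where 13.7% of all genes tested did, and 1 gene rose by more than 0.5, where 11.6% did. Log2 fold changes were negative for 61 genes and positive for 17. Counts and TPM were read relative to the rest of each library, so the amount of RNA per cell was not measured. A change in the total RNA of a cell or in its make-up was not tested. In a bulk sample, a lower share of these genes in each cell and fewer cells expressing them cannot be told apart.

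The direction was shared by the replicates. The median over the 78 genes was −0.24, −0.30 and −0.18 in pairs 2, 3 and 4, of which pair 2 belongs to batch A and the others to batch B, and −0.21 in the pair of replicate 1. In all 3 pairs 56 genes were lower and 7 were higher, where 5169 and 5275 of the 14218 genes tested were. With all 8 libraries, every 4A1 KO library lay below every control for 42 genes, or above for 1 gene (Mrpl57), where 19.6% of all genes tested were separated downwards and 17.2% upwards. In the fit to all 8 libraries Mrpl36 lost its call (adjusted p = 0.0496 with 6 libraries and 0.0545 with 8) and Mrpl37 gained one as higher (0.0841 and 0.0437). The effect of genotype was also compared between the sexes and between the batches in all 8 libraries. By edgeR none of the 78 genes passed an adjusted p under 0.05 for a difference between sexes, with 0 at an unadjusted p under 0.05, and the share called over all genes was 0%. For a difference between batches none passed either, with 2 (Mrpl28 and Mrps2) at an unadjusted p under 0.05, and the share called over all genes was 0.00704%.

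**Figure D1:**
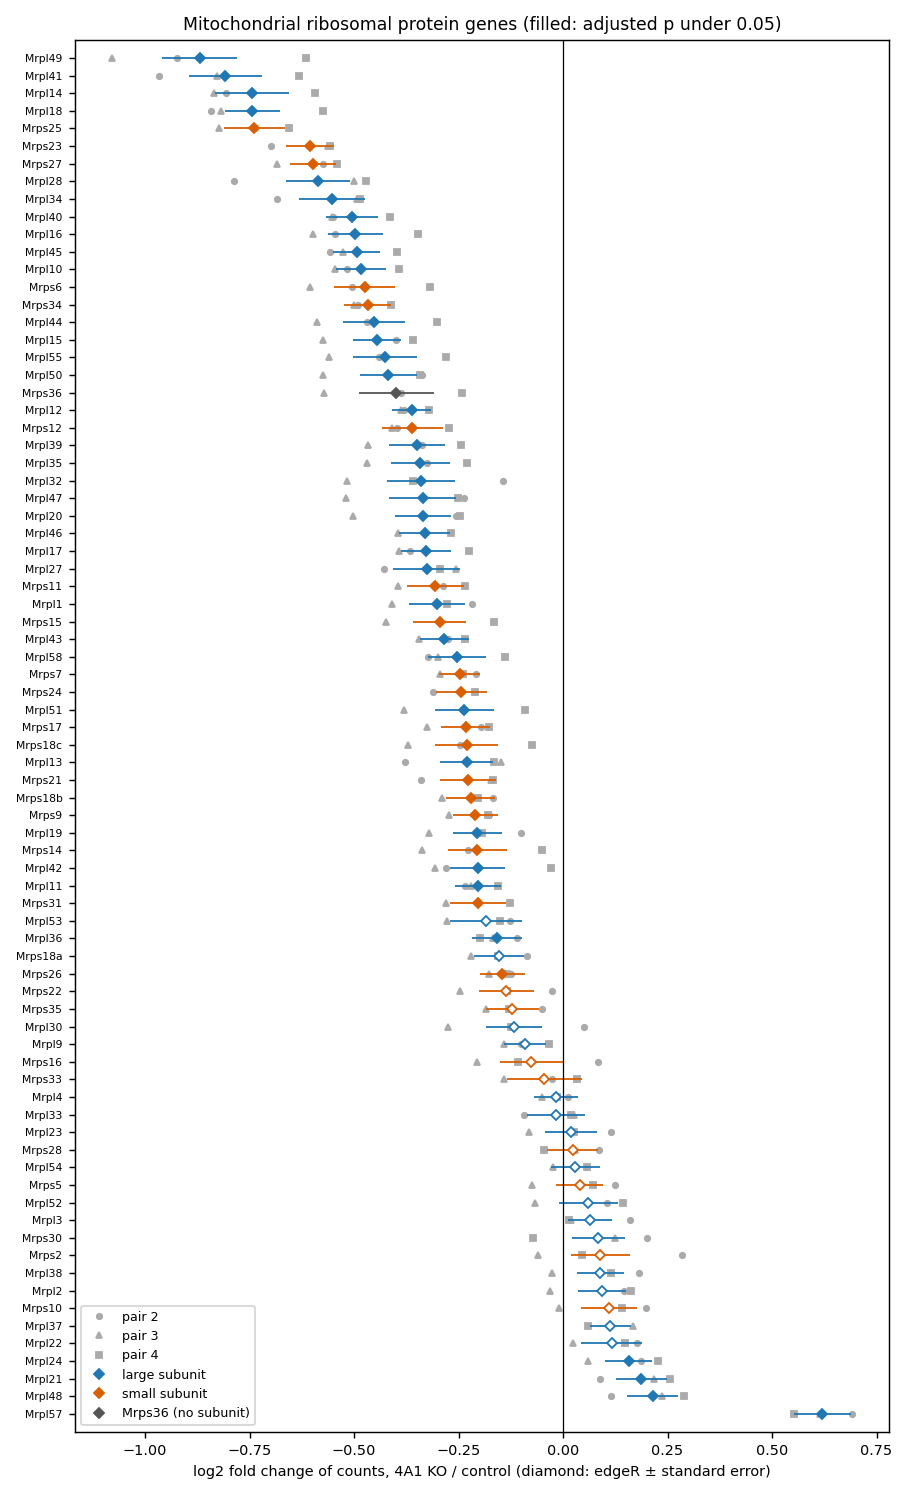
Log2 fold change of counts (4A1 KO over control, x axis) for the 78 mitochondrial ribosomal protein genes, ordered from the largest fall (Mrpl49, −0.87) to the largest rise (Mrpl57, 0.62). Diamonds are edgeR estimates with their standard error, filled where the adjusted p was under 0.05, and grey symbols are the 3 replicate pairs. Most filled diamonds lie left of 0, in both subunits.

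Genes of both subunits were lower. Of 51 proteins of the large subunit 32 were encoded by genes that fell and 4 by genes that rose, with a median log2 fold change of −0.25. Of 26 in the small subunit 18 fell, with a median of −0.22, and 0 rose by edgeR at an adjusted or an unadjusted p under 0.05, or by DESeq2. Mrps18a and Mrps30, in spite of their names, were placed with the large subunit, where their proteins sit, and Mrps36 with neither. Grouped by origin, the 45 genes with a bacterial counterpart had a median of −0.23 (30 lower, 2 higher) and the 29 particular to mitochondria a median of −0.24 (18 lower, 2 higher). Mrps18a, Mrps18b, Mrpl55 and Mrps36 were assigned to neither origin, so of the Mrps18 genes only Mrps18c was counted as bacterial. Over all genes tested 26.7% were lower and 26.3% higher. Differences between these classes were not tested.

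Levels per transcript length, in TPM (scaled to transcript length and to the library), gave the same picture. The 78 genes together summed to 6776, 6941, 7033 and 6857 TPM in controls 1 to 4, and to 5917, 5950, 5832 and 6109 TPM in 4A1 KO 1 to 4. The highest sum in a 4A1 KO library was thus below the lowest in a control, and the mean was 14.1% lower (6944 ± 88.1 against 5964 ± 139 TPM, SD, n = 3). Large subunit genes summed to 4760 ± 61.4 TPM in controls and 4134 ± 108 in 4A1 KO cells, and small subunit genes to 2118 ± 49.0 and 1779 ± 31.4 TPM. No test was made on these sums. The ratio of the large to the small sum was 2.21 to 2.31 in the 4 controls and 2.30 to 2.35 in the 4 4A1 KO libraries, so the ranges overlapped, while the ratio was higher in the 4A1 KO library in each of the 4 pairs. By limma on log2(TPM + 1), 51 of the 78 genes were lower and 2 were higher, where 26.6% and 24.1% of all 12976 genes tested were.

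**Figure D2:**
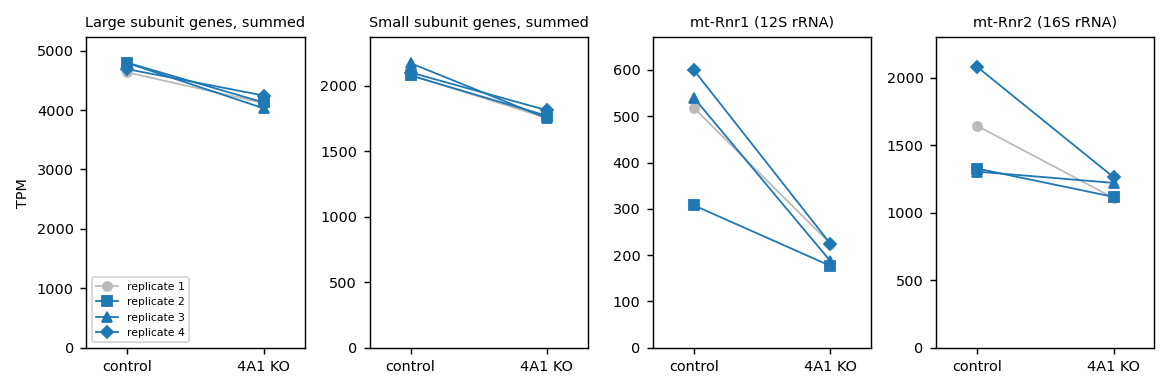
Summed TPM of the large and small subunit genes and TPM of both mitochondrial ribosomal RNAs (y axes, each from 0), with control and 4A1 KO on the x axis and a line for each replicate number. All lines slope down, in proportion most steeply for mt-Rnr1.

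Of the 8 largest falls 5 were in the large subunit, which holds 51 of the 78 genes. Mrpl49 (GRCm39 chromosome 19, 6103652 to 6107871, minus strand), a protein particular to mitochondria, was at 50.4, 57.1, 61.6 and 68.3 TPM in controls 1 to 4 and at 26.5, 30.3, 30.2 and 43.5 TPM in 4A1 KO 1 to 4. Its log2 fold change was −0.87 ± 0.089 (adjusted p = 7.13e-05), the most negative of the 78. All 4A1 KO libraries lay below all controls, and among them 4A1 KO 4 was the highest. Mrpl41 (chromosome 2, 24862319 to 24865956, minus strand), also particular to mitochondria, was at 61.1, 69.4, 65.9 and 63.6 TPM in controls 1 to 4 and at 31.6, 35.3, 37.9 and 40.5 TPM in 4A1 KO 1 to 4. That was a log2 fold change of −0.81 ± 0.088 (adjusted p = 9.82e-05), again without overlap. Mrpl14 (chromosome 17, 45996373 to 46010480, plus strand), which lies at the interface of the subunits, was at 63.1, 62.9, 59.5 and 57.7 TPM in controls 1 to 4 and at 37.9, 36.5, 34.7 and 38.2 TPM in 4A1 KO 1 to 4. It fell by 0.74 on the log2 scale (SE 0.088, adjusted p = 1.57e-04), and within each genotype the libraries lay close together.

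Mrpl18 (chromosome 17, 13130034 to 13135718, minus strand) is a protein of the central protuberance, the crest of the large subunit. It was at 123, 154, 146 and 165 TPM in controls 1 to 4 and at 75.6, 87.6, 82.7 and 106 TPM in 4A1 KO 1 to 4, and fell by 0.74 (SE 0.066, adjusted p = 3.78e-05). Ordered by TPM among the 78 genes it stood at place 6 in controls and at place 25 in 4A1 KO cells. Mrpl28 (chromosome 17, 26342469 to 26345588, plus strand), a bacterial-type protein, was at 98.2, 93.5, 86.5 and 87.1 TPM in controls 1 to 4 and at 55.6, 54.0, 65.7 and 62.1 TPM in 4A1 KO 1 to 4. Its log2 fold change was −0.59 ± 0.077 (adjusted p = 2.71e-04), with no overlap of the genotypes. Mrpl34 and Mrpl40 also passed both thresholds, at −0.55 and −0.51. Of the 6 genes for the central protuberance 4 fell (with Mrpl46 and Mrpl58) and 1 rose (Mrpl48), beside 26.7% lower and 26.3% higher over all genes tested.

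In the small subunit 3 of 26 genes were lower past both thresholds, where 13.7% of all genes tested were. All 3 were particular to mitochondria, while in the large subunit 4 such genes had a bacterial counterpart and 3 were particular to mitochondria. No difference by origin was tested. Mrps25 (chromosome 6, 92125876 to 92161043, minus strand) was at 11.8, 12.6, 12.1 and 13.3 TPM in controls 1 to 4 and at 7.60, 7.68, 7.61 and 8.88 TPM in 4A1 KO 1 to 4. It had the lowest level of the 78 in both genotypes and a log2 fold change of −0.74 ± 0.073 (adjusted p = 6.13e-05). Mrps23 (chromosome 11, 88095176 to 88102345, plus strand) was at 113, 115, 121 and 123 TPM in controls 1 to 4 and at 71.2, 70.9, 77.1 and 80.4 TPM in 4A1 KO 1 to 4. The log2 fold change was −0.61 ± 0.057 (adjusted p = 4.91e-05). Mrps27 (chromosome 13, 99480757 to 99552086, plus strand), a pentatricopeptide repeat protein, of a family that binds RNA, was at 97.1, 93.7, 98.4 and 99.8 TPM in controls 1 to 4 and at 63.4, 62.3, 62.1 and 68.5 TPM in 4A1 KO 1 to 4. It fell by 0.60 (SE 0.055, adjusted p = 4.39e-05), and in none of these 3 genes did the genotypes overlap.

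Mrpl57 (chromosome 14, 58063648 to 58066757, plus strand) went the other way. It encodes a short protein of the large subunit particular to mitochondria, and was at 30.1, 27.4, 25.1 and 25.4 TPM in controls 1 to 4 and at 52.2, 51.2, 47.6 and 43.01 TPM in 4A1 KO 1 to 4. Every 4A1 KO library was above every control, with a log2 fold change of 0.62 ± 0.068 (adjusted p = 1.06e-04) in counts and of 0.84 ± 0.062 on the log2(TPM + 1) scale (adjusted p = 6.85e-04 by limma). Its place by TPM among the 78 moved from 71 to 55. No other gene of the group rose by as much: the next, Mrpl48, rose by 0.21, Mrpl21 by 0.19 and Mrpl24, at the polypeptide exit tunnel, by 0.16.

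These smaller rises were less secure. Mrpl21 was at 122, 120.4, 115 and 107 TPM in controls 1 to 4 and at 128, 124, 133 and 128 TPM in 4A1 KO 1 to 4, with an adjusted p = 0.0274 in counts and 0.0521 by limma on TPM. Its genotypes did not overlap on TPM. Mrpl24 was at 125, 106, 127 and 118 TPM in controls 1 to 4 and at 139, 123, 135 and 137 TPM in 4A1 KO 1 to 4, and the genotypes overlapped (adjusted p = 0.0401 in counts and 0.0311 on TPM). Mrpl48 was at 77.4, 82.0, 77.8 and 68.6 TPM in controls 1 to 4 and at 45.7, 90.5, 62.0 and 95.8 TPM in 4A1 KO 1 to 4, a wide spread among the 4A1 KO libraries that its counts, with an adjusted p = 0.0159, did not have, and it did not pass on TPM (adjusted p = 0.590). Each of these 3 lost its call when replicate 4 was left out (adjusted p = 0.0519 to 0.142), and a processed pseudogene of Mrpl48 with 98.1% identity, which held 98 to 136 counts per library, could exchange reads with it.

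**Figure D3:**
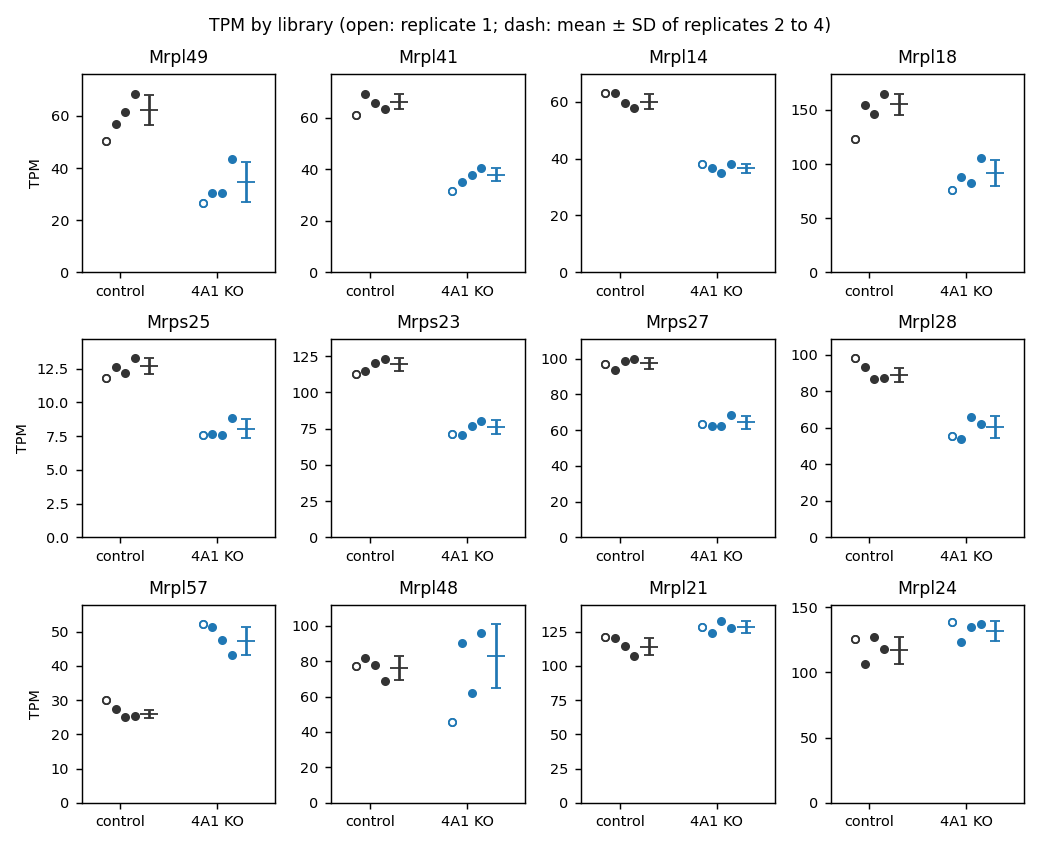
TPM by library (y axes from 0) for the 8 largest falls and the 4 rises, with control libraries in black and 4A1 KO libraries in blue. Open circles are replicate 1 and dashes with bars the mean and SD of replicates 2 to 4. The genotypes are separate in all 8 falls and in Mrpl57 and Mrpl21, and overlap in Mrpl48 and Mrpl24.

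The stalk of the large subunit recruits translation factors. Mrpl12, which forms it, had the highest level of the 78 genes, at 259, 269, 276 and 275 TPM in controls 1 to 4 and at 213, 205, 212 and 217 TPM in 4A1 KO 1 to 4. It remained the highest in 4A1 KO cells, but fell by 0.36 on the log2 scale (SE 0.046, adjusted p = 2.37e-04), without overlap. Mrpl10, which ties Mrpl12 to the ribosome, was at 59.9, 67.9, 66.2 and 68.3 TPM in controls 1 to 4 and at 43.3, 47.0, 45.3 and 51.3 TPM in 4A1 KO 1 to 4. It fell by 0.48 (SE 0.060, adjusted p = 1.95e-04), also without overlap. Mrpl11, at the base of the stalk, was at 133, 134, 126 and 123 TPM in controls 1 to 4 and at 121, 112, 108 and 107 TPM in 4A1 KO 1 to 4, and fell by 0.20 (adjusted p = 0.0129), a call that was lost when replicate 2 or 3 was left out (adjusted p = 0.0713 and 0.0817). All 3 genes of the stalk and its base were called lower, Mrpl11 the least securely, beside 26.7% of all genes tested.

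Mrpl42 and Mrpl30 followed Mrpl12 in control level and changed less than it. Mrpl42 was at 203, 232, 231 and 222 TPM in controls 1 to 4 and at 167, 182, 177 and 209 TPM in 4A1 KO 1 to 4, with the genotypes overlapping, and fell by 0.20 (adjusted p = 0.0286). Without replicate 2 or 3 its adjusted p was 0.153 or 0.176. Mrpl30 was at 186, 176, 189 and 181 TPM in controls 1 to 4 and at 158, 177, 155 and 161 TPM in 4A1 KO 1 to 4, a log2 fold change of −0.12 that did not pass (adjusted p = 0.174). At the other end of the range, Mrpl47 was at 15.9, 16.6, 20.0 and 20.2 TPM in controls 1 to 4 and at 12.4, 14.3, 14.6 and 16.9 TPM in 4A1 KO 1 to 4, and fell by 0.34 (adjusted p = 0.00719, and 0.0760 without replicate 3). Mrps35 was at 18.8, 18.2, 20.1 and 18.3 TPM in controls 1 to 4 and at 19.1, 18.8, 18.04 and 18.5 TPM in 4A1 KO 1 to 4, with a log2 fold change of −0.12 (adjusted p = 0.142). Mean control TPM spanned 12.7 to 273, a 21.5-fold range. Across the 78 genes the signed log2 fold change bore little relation to it (Pearson r = 0.084 on log2(TPM + 1), Spearman rho = 0.15 on TPM). These are genes of the same libraries, which are not independent. The order of the genes by TPM was largely kept between genotypes (Spearman rho = 0.96 across the 78 genes).

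**Figure D4:**
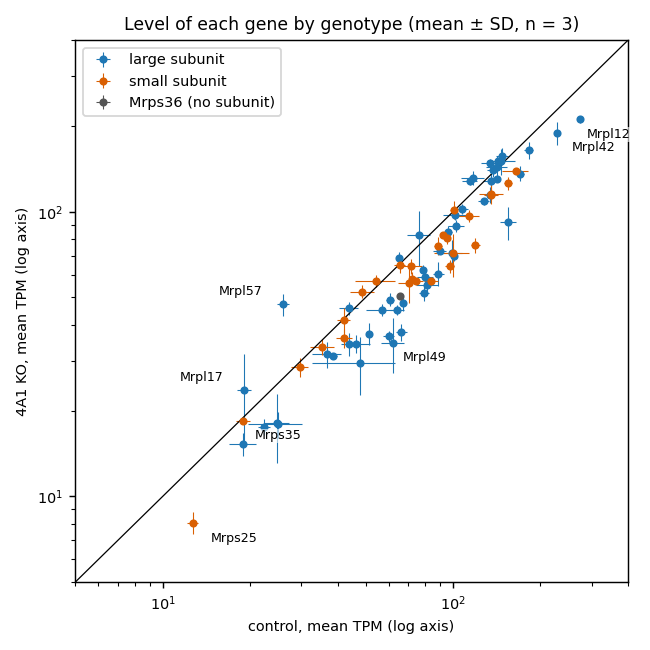
Mean TPM of each gene in control (x axis) and 4A1 KO (y axis) libraries, replicates 2 to 4, both on log axes, with SD bars and the line of equal level. Most points lie below the line, from Mrps25 at 12.7 TPM in controls to Mrpl12 at 273, with Mrpl57 well above it.

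Mrps18a, Mrps18b and Mrps18c descend from a single bacterial protein, and in mammals each ribosome holds all 3, Mrps18a in the large subunit. Mrps18a was at 98.9, 95.6, 103.04 and 108 TPM in controls 1 to 4 and at 93.4, 87.4, 86.5 and 94.4 TPM in 4A1 KO 1 to 4, with a log2 fold change of −0.15 (adjusted p = 0.0576). Mrps18b was at 110.1, 104, 123 and 112 TPM in controls 1 to 4 and at 102, 92.4, 101 and 96.8 TPM in 4A1 KO 1 to 4, and fell by 0.22 (adjusted p = 0.0113). Mrps18c was at 146, 145, 141 and 121 TPM in controls 1 to 4 and at 120.1, 126, 109 and 111 TPM in 4A1 KO 1 to 4, and fell by 0.23 (adjusted p = 0.0283), with the genotypes overlapping. The 3 paralogs thus lay close together, and the calls of Mrps18b and Mrps18c were lost without replicate 3 (adjusted p = 0.108 and 0.220). That of Mrps18c was also lost without replicate 2 (adjusted p = 0.113). Mrps36, which is named as a ribosomal protein but joins the 2-oxoglutarate dehydrogenase complex of the citric acid cycle, was at 59.6, 64.2, 67.0 and 66.2 TPM in controls 1 to 4 and at 44.8, 51.0, 50.3 and 50.7 TPM in 4A1 KO 1 to 4. It fell by 0.40 (SE 0.090, adjusted p = 0.00514), without overlap.

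Among the 23 genes that did not pass, log2 fold changes ran from −0.18 (Mrpl53) to 0.12 (Mrpl22). Of the 6 genes for proteins at the exit tunnel, through which the new chain leaves towards the inner membrane, 3 fell, among them Mrpl45 at −0.49 (adjusted p = 1.36e-04), 1 rose (Mrpl24), and Mrpl22 and Mrpl23 did not pass (0.12 and 0.02). Shares over all genes tested were 26.7% lower and 26.3% higher. Mrpl44, which resembles ribonuclease III, fell by 0.45 (adjusted p = 0.0010), and Mrpl58, which can release a stalled chain, by 0.25 (adjusted p = 0.0131). Mrps12, of the decoding site, fell by 0.36 (adjusted p = 0.00296), while Mrps5 and Mrps28 were at 0.04 and 0.02 and did not pass (adjusted p = 0.575 and 0.777).

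Counts and TPM gave log2 fold changes of the same sign for 75 of the 78 genes, Mrpl17, Mrpl23 and Mrps10 excepted. Both called 49 genes lower. Mrpl17 differed most. Its counts were lower in every 4A1 KO library, with a log2 fold change of −0.33 (adjusted p = 0.00155). On TPM it was at 18.6, 18.9, 20.3 and 18.1 TPM in controls 1 to 4 and at 14.5, 14.5, 27.2 and 29.1 TPM in 4A1 KO 1 to 4, so that 4A1 KO 3 and 4 stood above all controls and 4A1 KO 1 and 2 below them, and the TPM difference did not pass (adjusted p = 0.339). Mrps14 was called lower in counts alone, and Mrpl53 and Mrps18a in TPM alone. In the GENCODE annotation of GRCm39, 7 of the 78 genes shared at least 50 exonic bases with another gene on the same strand, the largest share being that of Mrps34 with Nme3 (47.8% of the exonic bases of Mrps34), and 14 had a pseudogene of at least 95% identity over at least 150 bases. For these genes the division of reads is uncertain, and the closest copies were those of Mrpl23, Mrps18b, Mrpl51 and Mrps33 (100%, 99.7%, 99.5% and 99.1% identity).

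The RNA of the particle itself was also lower. mt-Rnr1, the 12S RNA of the small subunit, was at 518, 308, 539.7 and 599.5 TPM in controls 1 to 4 and at 225, 177, 188 and 225 TPM in 4A1 KO 1 to 4. Its log2 fold change in counts was −1.24 ± 0.12 (adjusted p = 5.43e-05), larger than that of any of the 78 protein genes, with no overlap although control 2 lay well below the other controls. mt-Rnr2, the 16S RNA of the large subunit, was at 1643, 1327, 1304 and 2079 TPM in controls 1 to 4 and at 1109, 1117, 1221 and 1263 TPM in 4A1 KO 1 to 4. It fell by 0.34 (SE 0.095, adjusted p = 0.0140), and the fall was uneven, at −0.24, −0.10 and −0.69 in pairs 2, 3 and 4. How ribosomal RNA was removed or poly(A) RNA selected is not given in the sources used here, and its part in these 2 values was not tested. Of the 13 mRNAs that the mitochondrial ribosome translates, 3 were higher (mt-Co1, mt-Nd5 and mt-Cytb, at 0.43, 0.33 and 0.26), or 23.1%, below the 26.3% of all genes tested. By edgeR 0 were lower at an adjusted or unadjusted p under 0.05, and 0 by DESeq2. With all 8 libraries mt-Cytb lost its call (adjusted p = 0.0943) and mt-Nd3 was lower (adjusted p = 0.0479), and without the replicate block 0 were higher. The count table hardly measured 7 of them (mt-Co2, mt-Atp8, mt-Atp6, mt-Co3, mt-Nd3, mt-Nd4l and mt-Nd6), which held 20 to 1251 counts per library at mean control levels of 441 to 2020 TPM, while the other 6 held 21624 to 192746 counts at 1427 to 4327 TPM. On TPM, limma called mt-Co1, mt-Nd5 and mt-Nd6 higher (adjusted p = 0.0254, 0.0426 and 0.0474) and not mt-Cytb (adjusted p = 0.0859). The median log2 fold change of counts over the 13 was 0.16, but 0.44 in pair 2, which holds control 2, against 0.03 and 0.08 in pairs 3 and 4.

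Other nuclear gene groups were placed beside the mitochondrial ribosomal proteins. Proteins of the cytosolic ribosome, which makes the mitochondrial ones, showed the opposite balance: of 81 genes tested 40 were higher and 3 lower (Rpl37, Rpl11 and Rpl24), with a median log2 fold change of 0.13, and their summed TPM was 133579 ± 7309 in controls and 149759 ± 6642 in 4A1 KO cells (SD, n = 3). In pairs 2, 3 and 4 the median was 0.14, 0.08 and 0.18. Nuclear-encoded subunits of oxidative phosphorylation were lower in part: of 84 genes tested 37 were lower and 5 higher (Ndufb1, Atp5b, Cox6b2, Uqcrq and Cox7c), with a median of −0.12. Shares over all genes tested were 26.7% lower and 26.3% higher. Without the replicate block these counts were 17 higher and 1 lower for the cytosolic ribosome, and 20 lower and 1 higher for oxidative phosphorylation. Of all 14218 genes tested, 2644 were then lower and 2445 higher. With all 8 libraries the genotypes were separated upwards for 12 of the 81 cytosolic genes and downwards for 0. For oxidative phosphorylation 3 of 84 were separated upwards and 22 downwards. Over all genes tested 17.2% were separated upwards and 19.6% downwards. All 3 groups were compared in the same libraries, and no test was made between them.

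**Figure D5:**
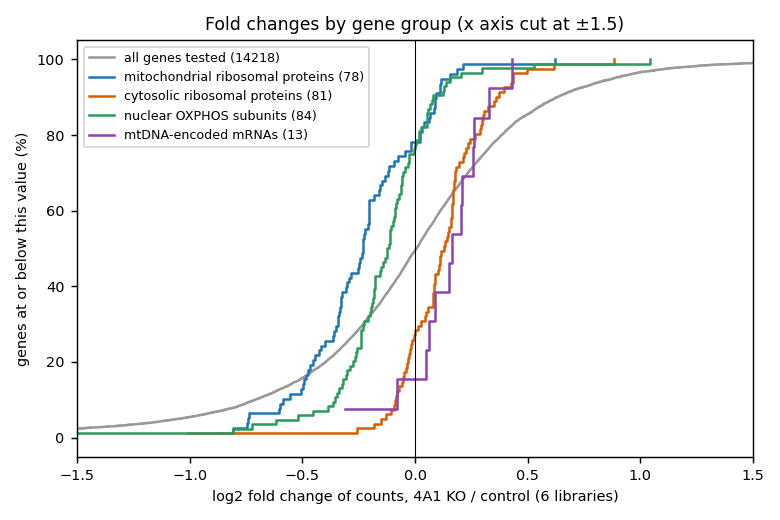
Cumulative share of genes (y axis, percent) at or below each log2 fold change of counts (4A1 KO over control, x axis) for the mitochondrial ribosomal protein genes, 3 comparison groups and all genes tested. The curve of the mitochondrial ribosomal proteins has its median left of 0 (−0.23) and that of the cytosolic ribosomal proteins right of it (0.13), and both curves cross 0.

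Genes that act on the mitochondrial ribosome were read against the 26.7% lower and 26.3% higher of all genes tested. Subunits that carry other names were at a median of −0.12: of Dap3, Ptcd3, Chchd1, Aurkaip1 and Gadd45gip1, only Dap3 passed (−0.17, adjusted p = 0.0157), and with all 8 libraries Ptcd3 did too (adjusted p = 0.0749 with 6 libraries and 0.0231 with 8). Of 27 factors that assemble the particle or modify its RNA 12 were lower, or 44.4%, and 6 higher, or 22.2%. The RNA pseudouridine synthase Rpusd4 fell by 0.53 (adjusted p = 1.32e-04), and of the methyltransferases that act on the 16S RNA, Mrm2 fell by 0.63 (adjusted p = 0.00116) and Mrm3 by 0.42 (adjusted p = 0.0100) whereas Mrm1 rose by 0.77 (adjusted p = 3.04e-04). Of 16 translation factors and partners 8 were lower, or 50%, and 2 higher, or 12.5% (Mrrf and Mtfmt). Among the lower ones were the elongation factor Tufm (−0.51, adjusted p = 4.44e-04), Oxa1l, which inserts new chains into the inner membrane (−0.41, adjusted p = 5.43e-04), and the release factor Mtrf1l (−0.72, adjusted p = 6.52e-04).

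Of 10 genes that copy or transcribe mitochondrial DNA 2 were lower and 2 higher, 20% each, which is below the shares over all genes tested. Polg, the catalytic subunit of the mitochondrial DNA polymerase, fell by 0.34 (adjusted p = 8.01e-04) and its accessory subunit Polg2 by 0.35 (adjusted p = 0.0266), while the helicase Twnk rose by 0.21 (adjusted p = 0.0206) and the single-stranded DNA binding protein Ssbp1 by 0.16 (adjusted p = 0.0492). On TPM limma called only Polg2 of these 4 genes (adjusted p = 0.0113), while Polg was at −0.06 with the genotypes overlapping (adjusted p = 0.387), and Twnk and Ssbp1 did not pass (adjusted p = 0.247 and 0.0567). Of 9 genes for regulators known to act on mitochondrial genes 1 was lower, or 11.1%, and 2 higher, or 22.2%, also below those shares. The coactivator Pprc1 rose by 0.62 (adjusted p = 3.94e-05), its relative Ppargc1b fell by 0.58 (adjusted p = 8.00e-04), and Gabpb1 rose by 0.14 (adjusted p = 0.0458), a call that TPM did not give (adjusted p = 0.155 by limma). Nrf1, Gabpa and Yy1 were at 0.13, 0.10 and 0.14 and did not pass (adjusted p = 0.0861, 0.118 and 0.0763), nor did Myc at −0.01 (adjusted p = 0.939). With all 8 libraries Nrf1 and Yy1 passed as higher (0.16 and 0.15, adjusted p = 0.0219 and 0.0262). On TPM neither passed (adjusted p = 0.313 and 0.210 with 6 libraries) and the genotypes overlapped. With all 8 libraries Fastkd2 and Mtif3 also passed as lower and Noa1 and Lrpprc as higher.

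Promoters were read to see what the genes share in sequence. RefSeq windows from 250 bases before to 50 bases after each start (GRCm38.p6, another build than that of the counts) were at hand for 69 of the 78 genes, 75 windows in all. Exact letters were searched on both strands, without excluding overlaps between motifs. GCGCANGCG, the core bound by NRF1, was in 21.3% of the windows, against 6.25% of all 32851 RefSeq windows. CCGGAAG, bound by GABPA and other ETS factors, was in 34.7% against 8.86%, and AAGATGGC, bound by YY1, in 12 of 75 windows against 2.75%. GGGCGG (SP1) was in 52.0% against 35.7%, CACGTG (the E-box) in 9.33% against 7.15%, and TCAAGGTCA (ESRRA) in 0 of 75 against 0.423%. Windows of genes that were lower and the others both held them: the NRF1 letters were in 12 of 47 windows of lower genes and 4 of the 28 others, the GABPA letters in 14 and 12, and the YY1 letters in 10 and 2. These shares are a description of letters and were not tested.

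The 120 bases before the start are shown for 5 genes, 5′ to 3′ on the strand of the gene, because they span the range of the changes: the largest fall, a fall in the small subunit, the sole rise past both thresholds, the most abundant gene and an abundant gene that did not pass. Capitals mark letters of a searched motif on either strand: SP1 in Mrpl49, GABPA in Mrps27, and NRF1 in Mrpl57, Mrpl12 and Mrpl30. The NRF1 letters thus stand before a gene that rose (Mrpl57), one that fell (Mrpl12) and one that did not pass (Mrpl30).
Mrpl49 (chr19:6057756-6057875, minus strand): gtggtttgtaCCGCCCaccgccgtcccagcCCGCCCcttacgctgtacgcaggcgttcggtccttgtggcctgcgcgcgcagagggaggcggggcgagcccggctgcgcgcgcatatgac
Mrps27 (chr13:99344666-99344785, plus strand): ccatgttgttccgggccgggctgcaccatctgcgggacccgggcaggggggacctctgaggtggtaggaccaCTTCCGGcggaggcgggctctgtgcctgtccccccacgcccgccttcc
Mrpl57 (chr14:57826119-57826238, plus strand): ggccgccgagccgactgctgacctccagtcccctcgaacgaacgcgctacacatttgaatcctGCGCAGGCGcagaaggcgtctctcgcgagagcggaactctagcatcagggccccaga
Mrpl12 (chr11:120484517-120484636, plus strand): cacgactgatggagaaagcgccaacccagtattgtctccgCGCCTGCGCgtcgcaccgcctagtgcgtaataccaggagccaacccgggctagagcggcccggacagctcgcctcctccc
Mrpl30 (chr1:37890357-37890476, plus strand): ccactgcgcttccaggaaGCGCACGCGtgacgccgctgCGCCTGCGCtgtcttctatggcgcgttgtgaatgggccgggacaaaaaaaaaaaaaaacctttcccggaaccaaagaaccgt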

How the data were processed

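Raw counts per gene and TPM were deposited by the authors, each as 1 table of the 8 libraries. Per the labels and the study's methods, reads were trimmed with Trim Galore 0.6.6 and aligned to GRCm39 with HISAT2 2.1.0. Counts were taken over merged isoforms on the opposing strand with Seqmonk, and TPM were made with StringTie 2.1.1. How reads with several alignments were counted is not given in the sources used here. Counts were tested with edgeR 4.0.16 (TMM scaling, its default filter on low counts, quasi-likelihood test, Benjamini-Hochberg adjustment over all genes tested), with batch and sex as covariates, and TPM with limma 3.58.1 on log2(TPM + 1) for genes whose mean reached 1 TPM. DESeq2 1.42.0 was an alternative. The steps were tested on simulated data. Same-numbered libraries shared batch and sex by the labels, and deviated together (r = 0.63, 0.54 and 0.47 for replicates 2 to 4), so the block was kept. Each library was taken as a separate mouse, as the study describes. The members and lists were chosen with earlier results of these data known. Values in every library are given for the 8 largest falls and up to 8 rises past the adjusted p in one direction in all 3 pairs, the 3 highest and 3 lowest genes by control TPM, the stalk, the Mrps18 genes and Mrps36. Of each list of other genes, the 3 with the smallest adjusted p are named. Exceptions, named after their values were seen, are Mrpl17, Mrpl34, Mrpl40, Mrpl44, Mrpl45, Mrpl58, Mrps12, Mrm3, the genes that did not pass, and genes named beside a count or because all 8 libraries changed their call. Pseudogene copies were found with blastn 2.17.0.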

Additional observations from a re-analysis of the deposited data

Results flagged for a closer look

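In 6 of the 156 sets of 4 libraries (78 genes in each genotype), a single library stood apart from the other 3 by Dixon's ratio, its gap to the nearest library over the whole range. Chance gives about 1 in 20 such sets, or 7.8 of 156. In 4A1 KO cells, Mrpl51 was at 42.95 CPM in replicate 4 and at 37.51 to 38.11 in the others (ratio 0.89), Mrps25 at 21.56 CPM in replicate 4 and at 18.71 to 19.08 in the others (0.869), and Mrpl16 at 46.54 CPM in replicate 4 and at 42.45 to 43.09 in the others (0.842). In all 3 the replicate was the 4A1 KO library nearest to the controls. Mrpl38 was at 105.8 CPM in 4A1 KO 1 and at 97.87 to 98.85 in the others (0.875), and Mrps33 at 13.29 CPM in 4A1 KO 2 and at 10.98 to 11.33 in the others (0.851). Among controls, Mrps15 was at 70.4 CPM in replicate 4 and at 76.49 to 77.55 in the others (0.853).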

How the results depend on the processing

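The count of 51 lower genes stayed between 47 and 51 with DESeq2's size factors, upper quartile scaling, DESeq2, no filter on low counts, all 8 libraries, or the subunits of other names added and Mrps36 left out. Leaving out 1 replicate of both genotypes gave 34 to 49, lowest without replicate 3, and 7 to 15 in place of 10 past both thresholds, highest without replicate 4. Without the replicate block 37 were lower and 1 was higher in place of 4, and all 38 were among the 55 called with it. Calls over all genes tested moved too: 3801 lower and 3737 higher became 2644 and 2445 without the block, and 3040 and 2937 without replicate 3. They were 2966 and 2762 without replicate 2, and 3725 and 3546 without replicate 4. DESeq2 gave 3132 and 2865, and the fit to all 8 libraries 4073 and 3957. The 4 higher genes became 5 with upper quartile scaling, 5 with all 8 libraries, 3 with no filter on low counts, 2 with DESeq2 and 2 to 3 with a replicate left out (2 without replicate 3 and 2 without replicate 4). On TPM, 51 lower genes became 37 with no filter on low values, 38 with no block, 53 with all 8 libraries and 35 to 46 with a replicate left out. The 2 higher ones on TPM became 1 with no filter, 1 with no block, 5 with all 8 libraries and 1 to 3 with a replicate left out. Calls over all genes with these TPM settings are not given here, so the moves on TPM cannot be set beside them. Over the 23 genes that the naming rule gave values in every library (Mrpl17 is not among them), 183 of 207 alternative values kept direction and call, 24 kept direction but not the call, and 0 reversed. The other scalings moved the median of all genes tested by at most 0.03.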
